A study of Homo sapiens with 6 samples.

Results

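The β-catenin peaks described here lay at the transcription factor genes SP5 and SP8 and along the stretch of chromosome 2 that runs from MYO3B to SP5. They were taken from 3 deposited peak lists as every peak that the authors assigned to SP5, SP8 or MYO3B, plus every other peak whose start lay between 171.0 and 171.7 Mb of chromosome 2 (hg19). This gave 19 of 3126 peaks: 10 of 1813 in the list from cells with CHIR99021 and SB431542 (CHIR+SB), 9 of 1053 in the list from cells with CHIR99021 (CHIR) and 0 of 260 in the list from cells in RPMI medium without inhibitor (RPMI). Peaks of CHIR+SB and CHIR that overlapped were counted as 1 site, which left 12 sites. The loci were chosen by their peaks in these lists, that is by the presence, position and signal of β-catenin peaks, so these values are a description and were not tested.

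The lists come from chromatin immunoprecipitation and sequencing (ChIP-seq) against β-catenin in the human embryonic stem cell line SA121, fixed after 6 h in RPMI-1640 with CHIR+SB, with CHIR or with no inhibitor. CHIR inhibits the kinase GSK3, which otherwise marks β-catenin for destruction, and SB431542 blocks the type I receptors of activin, Nodal and TGFβ. Each condition had 1 β-catenin library and 1 control library made with goat IgG, each from the DNA of 3 parallel ChIPs pooled beforehand. Conditions are therefore compared without replicates and without p-values. All values are from 1 cell line, and the lists hold no expression values against which its identity could be checked.

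When Wnt signalling is active, β-catenin escapes destruction, enters the nucleus and is held on DNA by TCF/LEF proteins, which read the core letters CTTTGA followed by A or T. SP5 encodes a zinc finger protein of the SP family and is a direct Wnt target in several vertebrates; the protein binds GC-rich sites. SP8 encodes a close relative that patterns limb and brain in the mouse, and Sp5 and Sp8 act together in Wnt-driven body axis growth of the mouse embryo. MYO3B encodes a class III myosin with a kinase domain, known from sensory cells of the ear and eye. LINC01124, listed by the authors as LOC440925, is a noncoding RNA gene that runs away from SP5 on the other strand, and GAD1, on the far side of SP5, encodes an enzyme that makes the transmitter GABA.

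The upstream sequences of SP5 and LINC01124 are shown because the peak over the SP5 start lay on both of them, wholly or in part. They are the 250 bases before each RefSeq start in GRCh38.p14, SP5 at chr2:170715087-170715336 on the plus strand and LINC01124 at chr2:170714568-170714817 on the minus strand, each written 5′ to 3′ on the strand of its gene. Capitals mark CTTTGAA or CTTTGAT on either strand.
SP5: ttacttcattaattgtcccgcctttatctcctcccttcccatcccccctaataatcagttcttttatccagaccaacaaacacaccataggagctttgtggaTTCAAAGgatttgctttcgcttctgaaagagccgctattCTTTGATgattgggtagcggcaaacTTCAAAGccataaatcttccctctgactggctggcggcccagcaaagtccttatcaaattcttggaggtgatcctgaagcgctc
LINC01124: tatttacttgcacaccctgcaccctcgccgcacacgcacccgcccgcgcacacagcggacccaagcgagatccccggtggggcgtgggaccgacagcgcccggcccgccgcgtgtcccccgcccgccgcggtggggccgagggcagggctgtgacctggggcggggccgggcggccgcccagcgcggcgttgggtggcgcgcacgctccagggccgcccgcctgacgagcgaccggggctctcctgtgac

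The SP5 sequence held 3 matches to CTTTGAA or CTTTGAT, which began 148, 109 and 84 bases before the start and did not overlap each other. Among 35116 RefSeq upstream sequences of the same length, from 27305 genes, 5.94% held at least 1 match and 7 (0.0199%) held 3 or more. Of the genes whose start lay inside a peak, 15 of 127 in CHIR+SB, 11 of 148 in CHIR and 6 of 98 in RPMI had a match before at least 1 of their RefSeq starts, and in the CHIR+SB and CHIR lists 1 of them, SP5, had 3. These counts are per gene over all its starts, whereas the 5.94% is per sequence, so they cannot be set against each other. The SP8 sequence held 1 match, 51 bases before the start, and those of LINC01124, MYO3B and GAD1 held none. The octamer ATGCAAAT, read by OCT4, was in none of these 5 sequences on either strand and in 1.63% of all. The GC box letters GGGCGG, on either strand, occurred 6 times upstream of LINC01124 (6 or more in 2.22% of all), 3 times upstream of SP8 (3 or more in 13.9%) and not upstream of SP5, MYO3B or GAD1. Each match is a run of letters and not a measured binding site.

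In RPMI no peak was called anywhere in the MYO3B to SP5 interval or at SP8. The 10 CHIR+SB peaks all lacked an RPMI peak under them, where 91.2% of all CHIR+SB peaks did, and so did the 9 CHIR peaks, where 83.0% of all CHIR peaks did. These shares are near those of the whole lists. A list holds counts for its own peaks, so the reads of the RPMI library at these sites are unknown and were not taken as 0. The lowest RPMI peak had 15 reads and a normalized signal of 9.61. Normalized signal here is the read count of a peak times 1 factor per library, as the authors give it. At equal signal the CHIR peak at SP5 would correspond to 50.9 reads in the RPMI library and the weakest of the 9 CHIR peaks 16.2 reads. That lowest RPMI signal was exceeded by 8 of the 10 peaks in CHIR+SB and by all 9 in CHIR. Among the 7 CHIR+SB peaks with at least the signal of SP5, 3 had no RPMI peak under them (EVX1, LINC01124 and SP5), and among the 32 such CHIR peaks 9 had none. Both counts include SP5, which set the cut, and LINC01124, and both were chosen from these lists, so their place there was fixed.

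**Figure D1:**
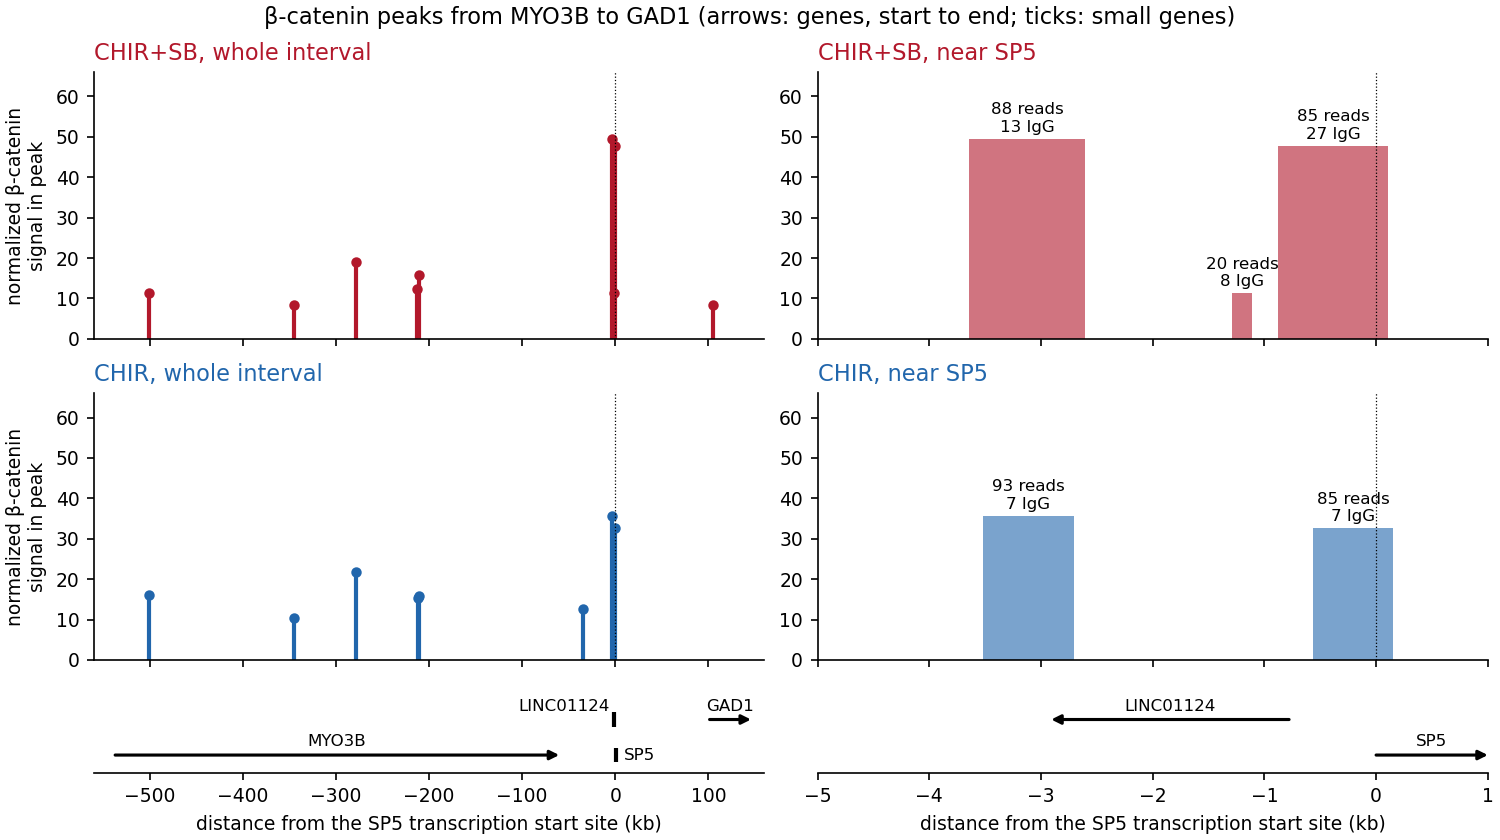
Normalized β-catenin signal of each peak (y axis) against its distance in kb from the SP5 transcription start site (x axis), in CHIR+SB (top) and CHIR (middle), with the genes below; the left panels show the whole interval with a stem at each peak's centre, and the right panels show 5 kb before to 1 kb after the SP5 start with each box as wide as its peak. The pair of high peaks 3.1 kb upstream and at the start of SP5 stands above all peaks within MYO3B in both conditions, and there is no RPMI panel because that list had 0 peaks here.

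By read count the highest peak of the interval lay across the 3′ end of LINC01124. It was centred 3.12 kb (CHIR+SB) and 3.11 kb (CHIR) upstream of the SP5 start. It had 88 reads and 13 IgG reads in CHIR+SB (171568216 to 171569247) and 93 reads and 7 IgG reads in CHIR (171568341 to 171569149). Its normalized signal was 49.5 in CHIR+SB and 35.7 in CHIR, which ranked it 6 of 1813 and 23 of 1053 peaks. The peak over the SP5 start had 85 reads and 27 IgG reads in CHIR+SB (171570981 to 171571965) and 85 reads and 7 IgG reads in CHIR (171571295 to 171572007). Its signal was 47.8 in CHIR+SB and 32.6 in CHIR, rank 7 in CHIR+SB and rank 28, shared by 5 peaks, in CHIR. Both peaks thus had a signal above that of at least 99.6% of the CHIR+SB list and 96.96% of the CHIR list. In CHIR+SB they were neighbours in rank, between EVX1 and CDX2.

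The peak over the SP5 start ran from 875 bp upstream to 109 bp downstream of the start in CHIR+SB and from 561 bp upstream to 151 bp downstream in CHIR. In both lists it covered the whole stretch of 250 bp before the start, the one printed above for SP5. The start of LINC01124 lies 0.779 kb upstream of that of SP5 in the authors' gene positions, and the CHIR+SB peak reached past it while the CHIR peak ended short of it. The 250 bp upstream of LINC01124 were thus wholly inside the CHIR+SB peak and 12.8% inside the CHIR peak. The distance between both starts is 779 bp in the lists and 770 bp in RefSeq, so the printed windows may be shifted by some bases against the authors' starts. In CHIR+SB a further small peak of 20 reads and 8 IgG reads lay inside LINC01124, 1.20 kb upstream of the SP5 start (171570569 to 171570743), where CHIR had none. It held 46.0 IgG reads per kb, against a list median of 23.5, and its ratio over IgG was 3.57 (1.51 to 9.38). The CHIR+SB peak over the SP5 start began close by, at 171570981, and whether the 2 are separate sites was not tested. The nearest CHIR peak, that of SP5, began 552 bp away.

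MYO3B had 5 peaks in CHIR+SB and 6 in CHIR, as many or more than all but a few genes: 2 of 1511 genes with a peak had more in CHIR+SB (ZNF608 and FOXB1) and 1 of 928 had more in CHIR (AXIN2). In CHIR+SB, AXIN2, LPHN2, PAX3 and PRKG1-AS1 also had 5. Most genes had 1 peak (1288 in CHIR+SB and 839 in CHIR). These counts were not adjusted for gene length, and MYO3B is a long gene chosen for its peaks. The 5 sites inside MYO3B were the same in both lists, spread over a gene of 477020 bp and lying between 211 and 501 kb upstream of SP5. All were well below the SP5 peaks: the signals ranged from 8.44 to 19.1 in CHIR+SB and from 10.4 to 21.9 in CHIR.

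The highest MYO3B site lay 258 kb into the gene, with 34 reads and 8 IgG reads in CHIR+SB (171292702 to 171293281) and 57 reads and 8 IgG reads in CHIR (171292657 to 171293239). It ranked 187 in CHIR+SB and 127 in CHIR. The site 36.6 kb into the gene had 20 reads and 9 IgG reads in CHIR+SB (171071013 to 171071355) and 42 reads and 4 IgG reads in CHIR (171070982 to 171071483). These are the site nearest to the MYO3B start and the highest, and neither lay at the promoter. The site 192 kb into the gene was the weakest, with 15 reads and 5 IgG reads in CHIR+SB (171226956 to 171227254) and 27 reads and 3 IgG reads in CHIR (171226895 to 171227206). A close pair of sites 325 and 326 kb into the gene had 22 and 28 reads, with 10 and 8 IgG reads, in CHIR+SB (171359181 to 171359614 and 171360883 to 171361391). The same pair had 40 and 41 reads, with 5 and 2 IgG reads, in CHIR (171359361 to 171359743 and 171360848 to 171361367). The signals of the pair were 12.4 and 15.8 in CHIR+SB and 15.4 and 15.7 in CHIR. The sixth CHIR peak assigned to MYO3B lay 25.2 kb beyond the end of that gene and 34.95 kb upstream of SP5, with 33 reads and 6 IgG reads (171536750 to 171537054). Its signal was 12.7, and the nearest CHIR+SB peak was 31.2 kb away. Whether a site lay in an exon or an intron is not given, since no hg19 annotation was used here.

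Beyond SP5 the interval held 1 more peak, in CHIR+SB, 3.64 kb inside GAD1 and 105 kb downstream of the SP5 start (171676746 to 171676929). It had 15 reads and 2 IgG reads and a signal of 8.44, a value below which 24.2% of the CHIR+SB list lay. Outside the interval, on the MYO3B side, UBR3, a ubiquitin ligase gene, had a peak at its start in every list. It had 19 reads in CHIR+SB, 36 in CHIR and 16 in RPMI, with 7, 5 and 4 IgG reads. The signals were 10.7 in CHIR+SB, 13.8 in CHIR and 10.3 in RPMI. The RPMI peak of UBR3 lay 387 kb from the nearest of the chosen peaks. On the GAD1 side the next peaks were in METTL8, an RNA methyltransferase gene, with 17 reads in CHIR+SB and 30 in CHIR. Both lay 115 kb from the METTL8 start. Of 14 neighbour genes of SP5, MYO3B and SP8 listed for comparison, MYO3B and LINC01124 included, UBR3 was the 1 with an RPMI peak.

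**Figure D2:**
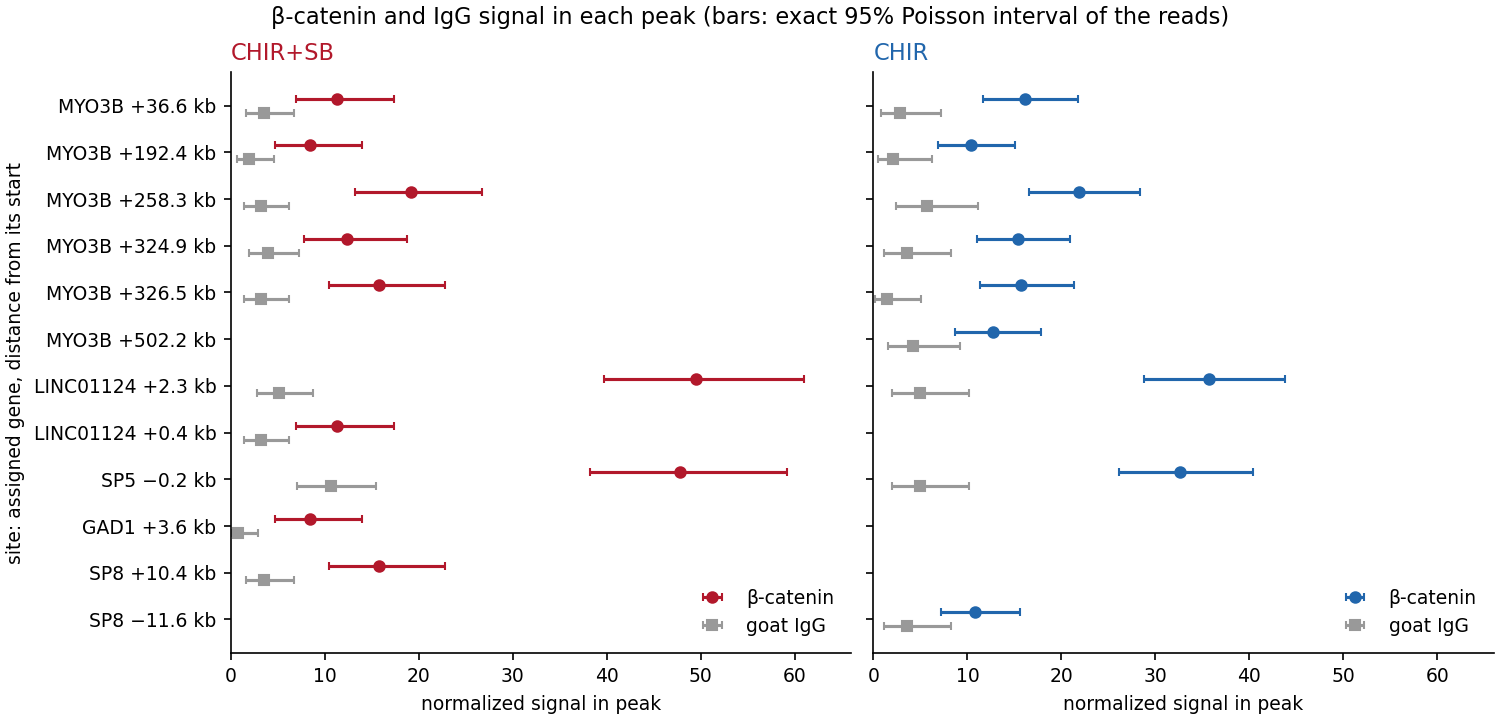
Normalized signal of the β-catenin library and of the goat IgG library (x axis) in each peak, by site (y axis), for CHIR+SB (left) and CHIR (right); bars are exact 95% Poisson intervals of the read counts, and each site is named by its assigned gene and its distance from that gene's start, from the CHIR list where both lists have it. The β-catenin signal was above the IgG signal in all 19 peaks, and among them IgG was highest at SP5 in CHIR+SB, at 10.6.

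In every one of the 19 peaks the exact 95% interval of β-catenin signal over IgG signal lay above 1, as it did for 99.8% of CHIR+SB peaks and 99.6% of CHIR peaks. The peak upstream of SP5 had a ratio over IgG of 9.67 in CHIR+SB (5.37 to 18.9) and 7.23 in CHIR (3.37 to 18.5). At the SP5 start it was 4.50 in CHIR+SB (2.89 to 7.22) and 6.61 in CHIR (3.07 to 16.9), so the intervals of both conditions overlapped. Only CDX2 and AXIN2 had more IgG reads in the CHIR+SB list than the 27 at the SP5 start. Per kb of peak the IgG reads there were 27.4, against a median of 23.5 over that list, and in CHIR 9.83, against a median of 10.97. By the authors' scaling the IgG library of CHIR+SB was 1.75 times and that of CHIR 0.976 times as deep as that of RPMI. The median ratio over IgG was 4.47 for the 10 CHIR+SB peaks, against 4.29 for the whole list, and 4.90 for the 9 CHIR peaks, against 4.66.

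**Figure D3:**
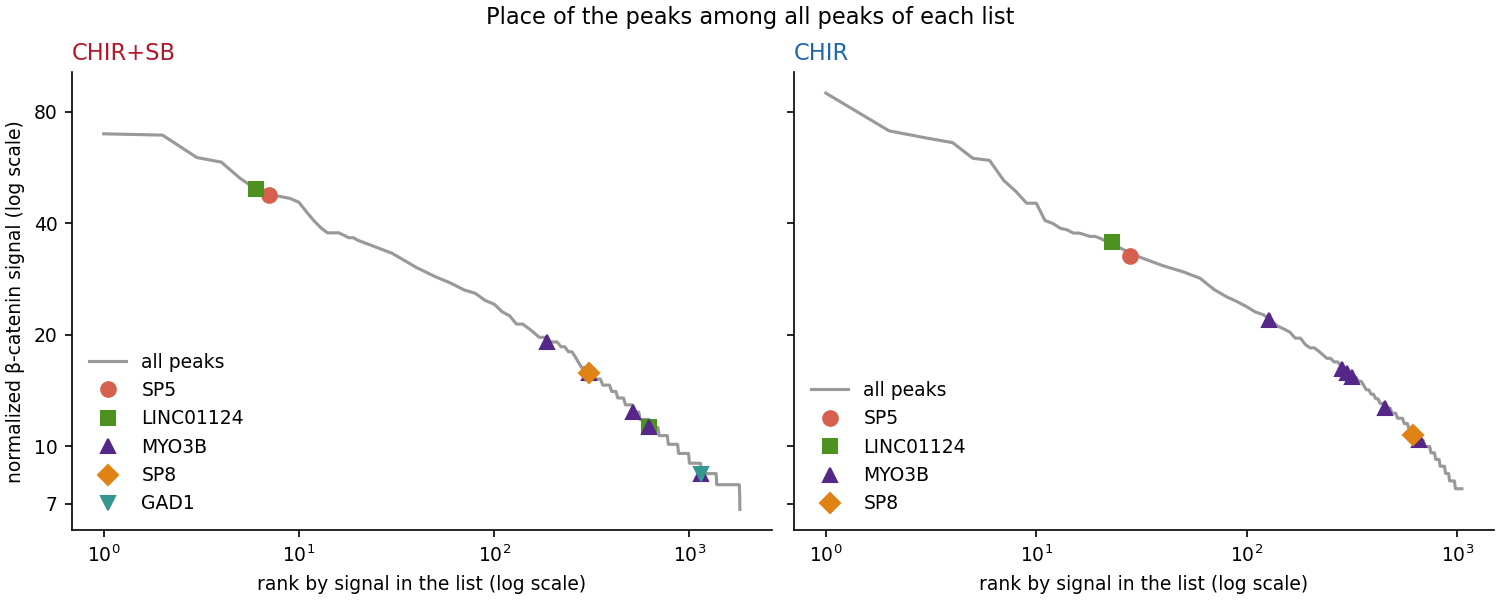
Normalized β-catenin signal (y axis, log scale) against the rank of a peak in its list (x axis, log scale) for CHIR+SB (left) and CHIR (right), with the peaks of SP5, LINC01124, MYO3B, SP8 and GAD1 as symbols on the line of all peaks. The SP5 start and the peak upstream of it rank 7 and 6 in CHIR+SB and 28 and 23 in CHIR, and all other symbols lie at rank 127 or lower down the lists.

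At SP8 the lists held 1 peak each, at different places. In CHIR+SB it lay 10.4 kb from the SP8 start, past the end of the gene by 5.82 kb (chromosome 7, 20815808 to 20816336), with 28 reads, 9 IgG reads and a signal of 15.8. In CHIR it lay 11.6 kb upstream of the start (20837954 to 20838261), with 28 reads, 5 IgG reads and a signal of 10.8. The peaks were 21.6 kb apart on opposite sides of the gene. They ranked 306 of 1813 in CHIR+SB and 618 of 1053 in CHIR, far below SP5, and neither lay at the SP8 promoter. The counts of the other library at either place are unknown, so no ratio was taken. At equal signal the CHIR+SB peak would correspond to 24.6 reads and the CHIR peak to 16.8 reads in the RPMI library.

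**Figure D4:**
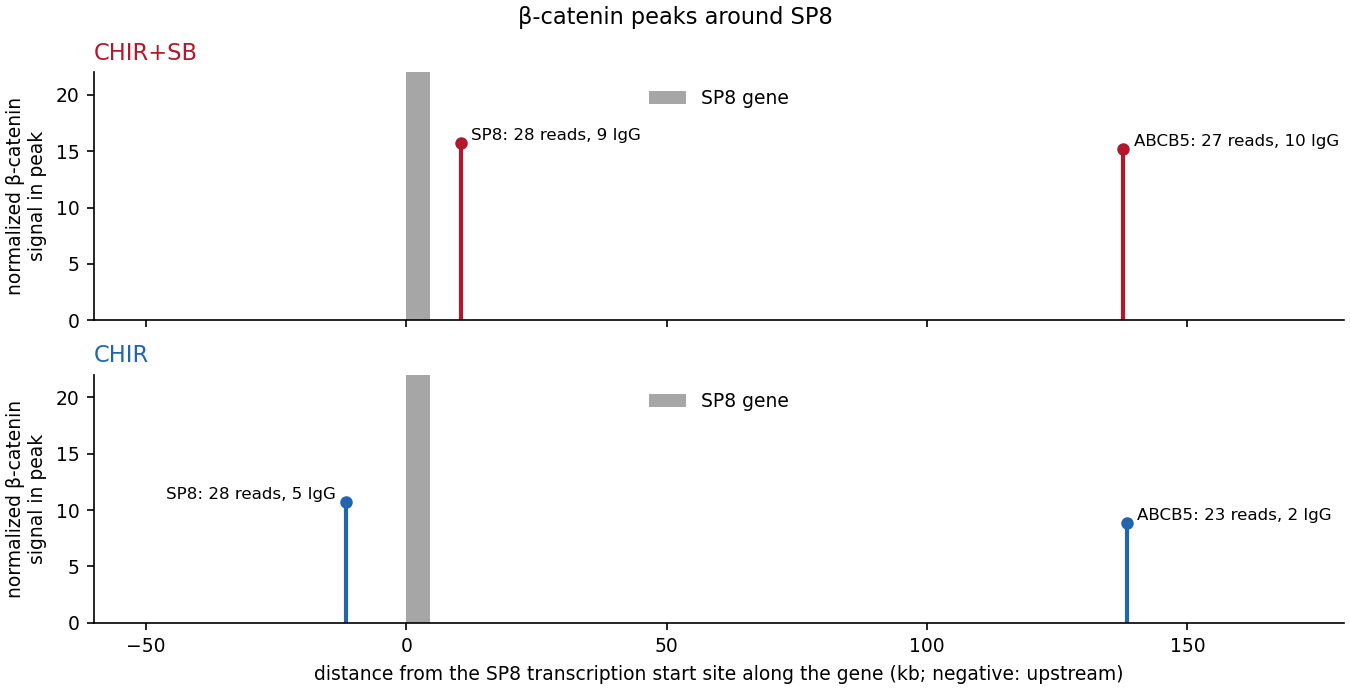
Normalized β-catenin signal (y axis) of the peaks around SP8 against their distance in kb from the SP8 transcription start site along the gene (x axis, negative upstream), in CHIR+SB (top) and CHIR (bottom); the grey band is the SP8 gene. The SP8 peaks of both conditions, with 28 reads each, lie on opposite sides of the gene, and the next peaks, at the transporter gene ABCB5, lie 138 kb downstream.

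The comparison of CHIR+SB with CHIR shows β-catenin on these sites with and without a block of activin/Nodal receptors. In CHIR+SB, 7 of the 10 peaks had a partner in CHIR, beside 36.6% of the whole CHIR+SB list. In CHIR, 7 of the 9 had a partner in CHIR+SB, beside 63.3% of the whole CHIR list. The loci were chosen for their peaks in these lists, and 8 of the 10 and 7 of the 9 exceeded their list's median signal. All 7 CHIR+SB and all 32 CHIR peaks with at least the signal of SP5 had a peak in the other inhibitor list. Whether sharing differed from that of peaks of like signal was not tested. The 7 shared sites were the 5 inside MYO3B, the one at the 3′ end of LINC01124 and the SP5 start. The unshared CHIR+SB peaks were those inside LINC01124, in GAD1 and downstream of SP8, with 15 to 28 reads. The unshared CHIR peaks were the one between MYO3B and SP5, with 33 reads, and the one upstream of SP8, with 28. Their ratios over IgG, 2.99 (1.24 to 8.74) and 3.05 (1.16 to 10.1), were the lowest of the 9 CHIR peaks. Those of the unshared CHIR+SB peaks were 3.57 (1.51 to 9.38) in LINC01124 and 4.44 (2.04 to 10.7) downstream of SP8. In GAD1 the ratio was 10.7 (2.49 to 96.6), from 15 reads and 2 IgG reads. With 1 library per condition, presence in 1 list only has no replicate check.

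Signal over the whole peak was higher in CHIR+SB at both sites next to SP5, and at the MYO3B sites no interval excluded 1. The ratio of CHIR+SB to CHIR signal was 1.39 (exact 95% interval 1.02 to 1.88) at the 3′ end of LINC01124 and 1.46 (1.07 to 2.003) at the SP5 start. At the MYO3B sites, in order along the gene, it was 0.698 (0.388 to 1.21), 0.814 (0.402 to 1.59), 0.874 (0.554 to 1.36), 0.806 (0.456 to 1.39) and 1.00 (0.596 to 1.66). The median of all 642 peaks that overlapped one-to-one was 1.00, and the interval lay above 1 at 6.70% of them and below 1 at 4.21%. Of the 7 shared sites, 2 had an interval above 1 and 0 below it. Their ratios exceeded those of 83.3% (LINC01124) and 86.8% (SP5) of all pairs, inside the 10th to 90th percentile range of 0.679 to 1.55. Whether an interval excludes 1 also depends on the counts. These 2 sites had 85 to 93 reads per library, against list medians of 17 in CHIR+SB and 31 in CHIR. None of the 7 reached 1.5-fold in either direction, where 11.7% of all pairs were at least that much higher and 8.88% at least that much lower in CHIR+SB. In raw reads, without the scaling, the ratio was 0.946 at LINC01124 and 1.00 at SP5, and it lay between 0.476 and 0.683 at the MYO3B sites. IgG signal at the SP5 start was 10.6 in CHIR+SB and 4.94 in CHIR, a ratio of 2.15 (0.914 to 5.85), and its part in the difference was not tested. With IgG signal subtracted the ratio was 1.34 at SP5 and 1.44 at LINC01124. The intervals cover counting error only.

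Both peaks next to SP5 were also wider in CHIR+SB, as were 51.4% of all 642 one-to-one pairs, whose median width ratio was 1.02. The widths were 1031 bp in CHIR+SB and 808 bp in CHIR at the 3′ end of LINC01124, and 984 bp in CHIR+SB and 712 bp in CHIR at the SP5 start. Per kb of peak, the CHIR+SB to CHIR ratio was 1.09 (0.802 to 1.47) and 1.06 (0.775 to 1.45), so no difference in signal density was detectable at this depth. At the MYO3B site 36.6 kb into the gene the peak was narrower in CHIR+SB (342 bp) than in CHIR (501 bp), and the ratio per kb was 1.02 (0.568 to 1.78). At the other MYO3B sites the ratios per kb lay between 0.711 and 1.02. Whether the sites next to SP5 differed from those in MYO3B was not tested.

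**Figure D5:**
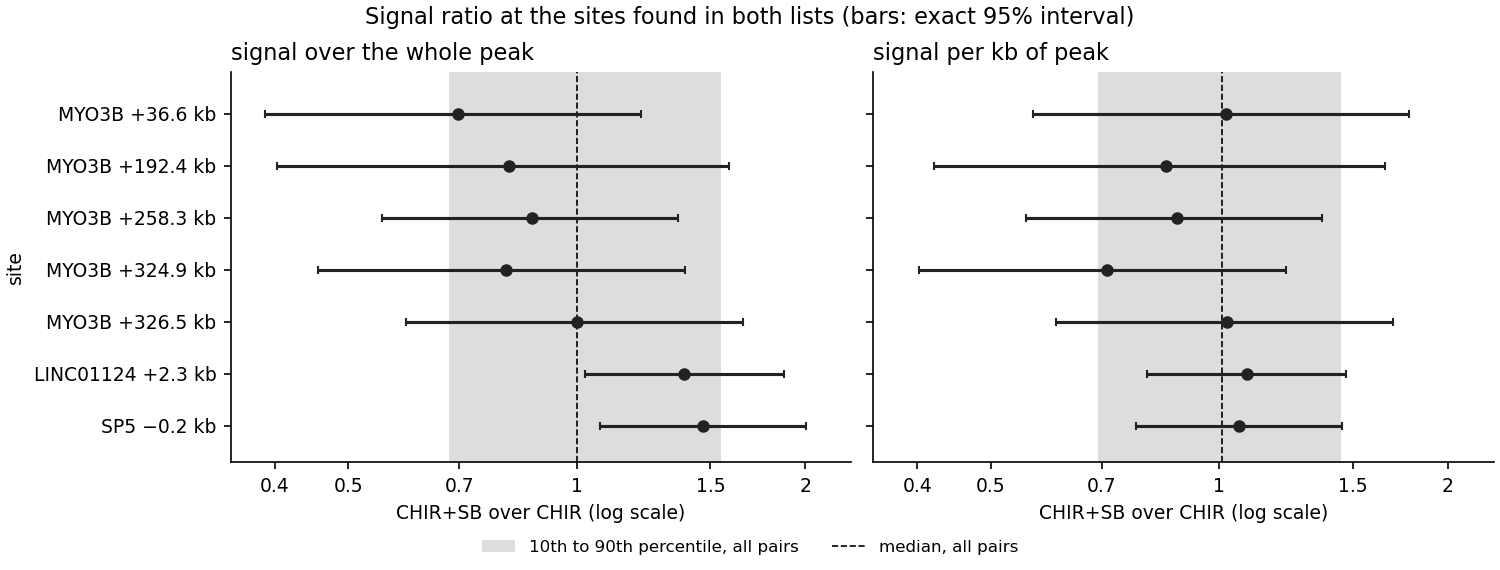
Ratio of CHIR+SB to CHIR signal (x axis, log scale) at the 7 sites found in both lists (y axis), over the whole peak (left) and per kb of peak (right), with exact 95% intervals as bars; the grey band spans the 10th to 90th percentile and the dashed line the median of all 642 one-to-one pairs. At SP5 and LINC01124 the whole-peak ratios are 1.46 and 1.39 and the ratios per kb 1.06 and 1.09.

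As a background for lists of genes, 6.21% of RefSeq protein-coding genes had a peak assigned in CHIR+SB, 3.74% in CHIR and 1.11% in RPMI. Among the SP family of 9 genes, 3 had a peak in both CHIR+SB and CHIR: SP5, SP8 and SP7, a factor of bone formation. SP5 and SP8 were chosen for their peaks in these lists, so their place in this count was fixed in advance. The SP8 peaks of both lists also lay at different places. The highest SP7 peak had 45 reads and a signal of 25.3 in CHIR+SB and 66 reads and a signal of 25.3 in CHIR, between those of SP5 and SP8. Of 18 KLF genes, which encode related zinc finger proteins, 5 had a peak assigned in CHIR+SB and 2 in CHIR. The signals were at most 15.8 in CHIR+SB (KLF4) and 7.68 in CHIR. Peaks were assigned by the authors at any distance. The highest peak of each KLF gene lay 1.30 kb (KLF6) to 402 kb (KLF12) from its start in CHIR+SB. In CHIR the distances were 89.0 kb (KLF7) and 107 kb (KLF12). The CHIR+SB list is also the longer one, with 1511 genes named against 928 in CHIR, and whether the KLF counts differ beyond that was not tested. No SP or KLF gene had a peak in RPMI. Of 26 Wnt target, ligand and feedback genes, 16 had a peak in CHIR+SB, 17 in CHIR and 1 in RPMI (WNT8A). The CHIR+SB and CHIR counts include SP5 and SP8, which was likewise fixed by the choice of loci. Ordered by the highest signal of each gene, SP5 came first in CHIR+SB, with 47.8 beside 47.3 for CDX2, a posterior homeobox factor, and 45.6 for AXIN2, a feedback inhibitor. In CHIR it came second, with 32.6 behind 68.0 for CDX2 and ahead of 28.4 for CDX1. With 85 reads in each library, SP5 in CHIR+SB cannot be ordered against CDX2 and AXIN2, which had 84 and 81 reads. SP8 came ninth in CHIR+SB and shared place 15 with TBXT in CHIR, at a signal of 10.8.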

How the data were processed

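The submitters' processing notes name Bowtie, an aligner, and list hg19 and mm9 as builds. Which peak caller, thresholds or library totals applied is not given in the sources used here. Per the file headers, the authors deposited for each peak its position, whole read counts of the β-catenin and IgG libraries, both as normalized signal, their ratio, and the assigned gene with its distance to the start site. Peak positions are those of the lists. Decimal commas were read as points. Testing the files showed 1 scaling factor per library, by which the β-catenin library was 1.14 (CHIR+SB) and 1.67 (CHIR) times as deep as RPMI, if the authors scaled to equal depth. The lists hold 39022, 39408 and 6272 β-catenin reads within peaks in CHIR+SB, CHIR and RPMI, and 12664, 4362 and 1294 IgG reads.

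Genes were named from RefSeq accessions (all 19 peaks matched). Overlap meant at least 1 bp. Ratios have exact 95% intervals (Clopper-Pearson, from both counts), which cover counting error only. Python 3.11.15, numpy 2.4.6, scipy 1.17.1 and matplotlib 3.10.9 were used. Every chosen peak is described; other genes come from family, Wnt and neighbour lists, from the genes with the most peaks and from peaks above SP5 in signal, the last 2 chosen after their values were seen. Members and lists were chosen with earlier results of these data known. Sequences are RefSeq's, in GRCh38.p14; peak sequences in hg19 were not used here. Doses are left out, because the labelled unit is doubtful. Alternatives were signal per kb, IgG subtracted, other scalings, stricter lists and other overlap rules.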

Additional observations from a re-analysis of the deposited data

How the results depend on the processing

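The higher CHIR+SB signal next to SP5 depended on peak width and on the authors' scaling. At the SP5 start the CHIR+SB to CHIR ratio of 1.46 became 1.06 per kb of peak and 1.00 in raw reads. At the 3′ end of LINC01124 the ratio of 1.39 became 0.946 in raw reads, a turn of direction. The cause was not tested. The other 25 recomputed ratios, over 7 sites, lay inside the interval of the reported value, as did all 19 ratios over IgG when taken in raw reads. Among these 25, the direction turned at the MYO3B site 36.6 kb into the gene, where 0.698 became 1.02 per kb, and at the one 326 kb into it, where 1.00 became 0.879 with IgG subtracted and 0.683 in raw reads. Also among them, the ratios divided by the median of all pairs were 1.465 at SP5 and 1.387 at LINC01124. Raw reads take no account of depth, which by the authors' scaling was 1.14 (CHIR+SB) and 1.67 (CHIR) times that of RPMI. In raw reads the ratio over IgG at the 3′ end of LINC01124 was 6.77 in CHIR+SB and 13.3 in CHIR. With the scaling it was 9.67 and 7.23, so the order of the conditions turned. At the SP5 start it was 3.15 and 12.1 in raw reads, against 4.50 and 6.61. With the 260 highest peaks of each list, 3 of the 10 CHIR+SB peaks and 3 of the 9 CHIR peaks remained. With the common signal minimum of 9.61, 8 and 9 remained. Sharing between CHIR+SB and CHIR was 7 sites also when 50% of the shorter peak had to overlap, and 8 CHIR+SB peaks had a CHIR peak centre within 1 kb. No paired analysis was possible because each condition had 1 library. No library could be left out for the same reason. The precision is limited by counts of 15 to 93 β-catenin reads and 2 to 27 IgG reads per peak.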

Other observations

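In the CHIR+SB list the 5 highest IgG counts were at CDX2 and AXIN2 (32 reads each) and at SP5, EVX1 and ERCC6L2 (27 each), all of them among the 10 highest β-catenin peaks of that list (ranks 8, 10, 7, 5 and 2). In the CHIR list the 5 highest IgG counts were at RBM39, DENR, CDK12, SLC27A4 and DYNC1H1, with 16 to 13 reads and β-catenin ranks of 1, 5, 7, 39 and 9, and SP5 had 7 IgG reads. Per kb of peak, the CHIR+SB IgG reads were 34.5 at CDX2, 22.2 at AXIN2, 27.4 at SP5, 21.6 at EVX1 and 34.7 at ERCC6L2, against the list median of 23.5.

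Near SP8, the ABCB5 peaks of CHIR+SB (27 reads, 10 IgG reads) and CHIR (23 reads, 2 IgG reads) did not overlap and lay 298 bp apart. Of the 7 RefSeq upstream sequences with 3 or more matches to CTTTGAA or CTTTGAT, each of a different gene, those of SP5 and CUBN belonged to a gene with a β-catenin peak assigned to it, SP5 in both inhibitor lists and CUBN in CHIR+SB.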
